A study of Mus musculus with 12 samples.

Results

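Interleukin 12 (IL-12), its relatives IL-23 and IL-27, and IL-10 were followed through their 6 genes, Il12a, Il12b, Il23a, Il27, Ebi3 and Il10, in bulk RNA sequencing of mouse liver macrophages. The 6 were chosen by name, as the subunit genes of these heterodimers plus Il10, and were looked up by symbol among the 25700 genes of the count table. All 6 were found, and 5 passed the filter on low counts that left 13844 genes to test; Il23a did not pass.

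Cells came from collagenase-digested livers and were pulled down with magnetic beads through F4/80, a protein on the surface of mouse macrophages. The question named in the series' title is whether macrophages of the liver that take up red cells become anti-inflammatory. Mice of the Spta sph/sph genotype, which carry a spectrin mutation that makes red cells fragile, were set beside littermates labelled Spta wt/wt (WT). Mice of both genotypes were injected into the peritoneum with saline or with an agonistic CD40 antibody (anti-CD40, 20 mg/kg), and livers were taken 30 h later. The 4 groups were WT with saline, sph/sph with saline, WT with anti-CD40 and sph/sph with anti-CD40, each with 3 libraries from mice labelled as male and 8 to 10 weeks old. The controls of the antibody received saline and no control antibody. CD40 activates the macrophages, dendritic cells and B lymphocytes that carry it. The columns of the deposited table call the control genotype "Hetero", whereas every label calls it WT, and it is called WT here. The letters A, B and C follow the column order in each group. In the column names the A libraries of both genotypes carry a common ID number under saline, and another under anti-CD40, whose meaning is not given; no other number is shared.

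Total counts ran from 14991250 to 18984067 per library. The A library of each group held 0 reads of 4 Y-linked genes although the mice are labelled male, and the other 8 libraries held between 2436 and 4055. The library sph/sph anti-CD40 C stood apart from A and B of its group in several of the genes described here, and values without it are given beside the results that it moves. Adgre1, the gene of the F4/80 protein used for capture, fell in WT under anti-CD40, from 1811, 1579 and 1942 CPM (counts scaled to a common library total) in the saline libraries to 173, 51.4 and 39.8 CPM, and read 1178, 2237 and 1101 CPM in sph/sph under anti-CD40 (log2 fold in WT -4.34, SE 0.57, edgeR adjusted p = 0.000371). The 8 Kupffer cell markers, genes of the resident liver macrophage, summed to between 391.7 and 1047 CPM in WT under anti-CD40, against 26940 to 31450 CPM in WT saline and 20020 to 35870 CPM in sph/sph under anti-CD40. Marco, which was higher in sph/sph than in WT under both treatments, made up much of the last sum: the other 7 markers summed to 9885 to 14290 CPM there, to 26660 to 30510 CPM in WT saline, to 21330 to 31910 CPM in sph/sph saline and to 117.3 to 336.4 CPM in WT under anti-CD40. Of 8 general macrophage markers, Adgre1 among them, 6 were lower in WT under anti-CD40, beside 19.7% of all genes tested. Lyz2 and Itgam were not called. The sum of the 8 was 6729 to 13080 CPM there, against 14240 to 16370 CPM in WT saline. Lyz2 made up most of it in WT anti-CD40, at 10520, 7856 and 5850 CPM. In such bulk samples, fewer cells of a type and less RNA per cell cannot be told apart.

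IL-12 family cytokines are built from 2 chains that cells combine in different ways. Il12b encodes the chain shared by IL-12 and IL-23, Il12a completes IL-12, and Il23a completes IL-23. Ebi3 pairs with the product of Il27 in IL-27, and with that of Il12a in IL-35. Activated macrophages and dendritic cells are the main sources of IL-12 and IL-23; IL-12 drives interferon-gamma production by T and NK cells, and IL-23 sustains lymphocytes that make IL-17 and IL-22. IL-27 both activates and restrains T cells. IL-10, a homodimer of another family, restrains macrophages, including their IL-12 production, through STAT3, and in the liver it is made by Kupffer cells among others.

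Il12b (ENSMUSG00000004296) lies on chromosome 11, 44400063 to 44414033, plus strand, of mouse build GRCm38. Il12a (ENSMUSG00000027776) lies on chromosome 3, 68690644 to 68698547, plus strand, and Il23a (ENSMUSG00000025383) on chromosome 10, 128296139 to 128298752, minus strand. Il27 (ENSMUSG00000044701) lies on chromosome 7, 126589010 to 126594941, minus strand, and Ebi3 (ENSMUSG00000003206) on chromosome 17, 55952640 to 55957022, plus strand. Il10 (ENSMUSG00000016529) lies on chromosome 1, 131019845 to 131024974, plus strand. All 6 are protein-coding. The last exon of Il27 overlaps exons of Apobr on the other strand, and Ebi3 overlaps the antisense gene Gm16712, which was not analysed here. Whether the counting used strand is not given in the sources used here, so reads of these partners cannot be told apart from those of Il27 and Ebi3, whose values are uncertain to that extent.

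Promoter sequence from RefSeq (GRCm38.p6) was at hand for 3 of the 6 members, Il12a, Il12b and Ebi3. The 250 bases before the first start of each are shown because Il12a and Il12b rose under anti-CD40 in WT whereas Ebi3 passed no test. All are on the plus strand, at chr11:44399813-44400062 for Il12b, chr3:68690394-68690643 for Il12a and chr17:55952373-55952622 for Ebi3. Capitals mark the only match found to any motif searched, an NF-kB consensus.
Il12b: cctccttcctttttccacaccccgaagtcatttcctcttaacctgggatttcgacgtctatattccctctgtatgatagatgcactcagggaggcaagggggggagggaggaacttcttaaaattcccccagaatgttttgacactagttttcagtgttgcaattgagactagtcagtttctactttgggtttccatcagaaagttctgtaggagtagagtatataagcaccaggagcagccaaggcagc
Il12a: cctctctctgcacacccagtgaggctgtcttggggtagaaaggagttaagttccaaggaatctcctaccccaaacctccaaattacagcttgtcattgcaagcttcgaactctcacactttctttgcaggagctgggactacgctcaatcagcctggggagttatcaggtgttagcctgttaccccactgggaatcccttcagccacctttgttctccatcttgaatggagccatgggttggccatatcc
Ebi3: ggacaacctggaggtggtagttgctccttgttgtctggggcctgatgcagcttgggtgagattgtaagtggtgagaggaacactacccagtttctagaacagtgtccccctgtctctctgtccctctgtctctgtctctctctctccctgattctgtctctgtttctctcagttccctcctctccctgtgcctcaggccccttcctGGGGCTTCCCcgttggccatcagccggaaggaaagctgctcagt
Motifs of factors that act on cytokine genes were searched on both strands: the NF-kB consensus, the interferon response core GAAANNGAA, the AP-1 site TGANTCA, the C/EBP site TTNCNNAA and the PU.1 site GAGGAAG. The match in Ebi3 lay 44 to 35 bases before the start and reads as a match on both strands. Of 32851 promoter windows of this length, 7.25% held the NF-kB consensus, 7.13% the interferon core, 6.75% the AP-1 site, 36.8% the C/EBP site and 10.6% the PU.1 site. The windows of Il12b and Il12a, the members with the largest fitted increases in WT, held none of these letters, which says nothing on whether the factors act there.

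The first comparison asks how the cytokine genes answer the CD40 antibody in WT mice. In WT, anti-CD40 raised Il12b, Il12a and Il27, while Il10 and Ebi3 did not pass the test. Il12b read 0.771, 0.275 and 0.0554 CPM (12, 5 and 1 counts) in the saline libraries A, B and C, in that order, and 112, 30.4 and 30.4 CPM (1684, 579 and 618 counts) under anti-CD40. The groups did not overlap, and A was the highest under anti-CD40. The mean rose from 0.367 ± 0.367 to 57.6 ± 47.1 CPM (SD, n = 3 per group), a log2 fold of 7.31 (SE 1.22, edgeR adjusted p = 0.00138). The increase passed the test under all 20 alternative settings, with adjusted p up to 0.0242 and log2 folds between 6.38 and 8.38.

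Il12a, the chain that makes IL-12 of Il12b's product, was close to 0 without the antibody. The saline libraries had 1, 0 and 1 counts, and the gene had 123, 78 and 39 counts in WT under anti-CD40, or 8.18, 4.09 and 1.92 CPM, with no overlap. The log2 fold was 6.67 (SE 1.40, edgeR adjusted p = 0.00473), and it passed the test in all 20 alternatives. With 2 counts in all in WT saline the size of the increase is poorly known: the ratio of summed counts per library size was 114, with a 95% exact interval of 31.3 to 949 that covers counting error only.

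Il23a, the private chain of IL-23, was counted 0, 2 and 2 times in WT saline and 70, 18 and 8 times in WT under anti-CD40. The groups did not overlap, A again being the highest, and the ratio of summed counts was 22.9 (95% exact interval 8.64 to 85.6). Fitted without the filter on low counts, Il23a rose by a log2 fold of 4.55 (edgeR adjusted p = 0.0191). Where 1 library was left out and the filter asked for fewer libraries, the adjusted p was 0.0542 without WT saline A, and the gene was not tested without WT anti-CD40 A or B.

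Il27, the private chain of IL-27, read 8.29, 7.47 and 4.71 CPM in WT saline and 80.1, 18.5 and 13 CPM under anti-CD40. The groups did not overlap, but A lay far above B and C. The mean went from 6.82 ± 1.88 to 37.2 ± 37.2 CPM, a log2 fold of 2.44 (SE 0.87, edgeR adjusted p = 0.0468). This call is a narrow one. It was lost in 14 of the 20 alternatives, among them the omission of any 1 of 10 libraries, that is, of any but WT anti-CD40 C and sph/sph anti-CD40 C. Without WT anti-CD40 A the log2 fold was 1.21 (edgeR adjusted p = 0.236), and without the other 9 the adjusted p ran from 0.0537 to 0.135. Apobr, which shares sequence with the last exon of Il27, fell in the same comparison (log2 fold -0.87, SE 0.28, edgeR adjusted p = 0.032).

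Ebi3, the partner of Il27, read 49.0, 39.9 and 36.5 CPM in WT saline and 81.1, 40.1 and 27.5 CPM under anti-CD40. The groups overlapped and the log2 fold was 0.24 (SE 0.36, edgeR adjusted p = 0.607). Il10 read 3.34, 2.42 and 3.49 CPM in WT saline and 3.13, 3.78 and 2.17 CPM under anti-CD40. These groups overlapped fully, at means of 3.08 ± 0.582 and 3.02 ± 0.811 CPM, and the log2 fold was -0.03 (SE 0.91, edgeR adjusted p = 0.985). In WT, then, 3 of the 5 tested members rose and 0 fell. Of all genes tested, 19.4% rose and 19.7% fell in this comparison, 39.2% in either direction. The median log2 fold of the 5 was 2.44, beside 0.0474 over all genes tested.

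**Figure D1:**
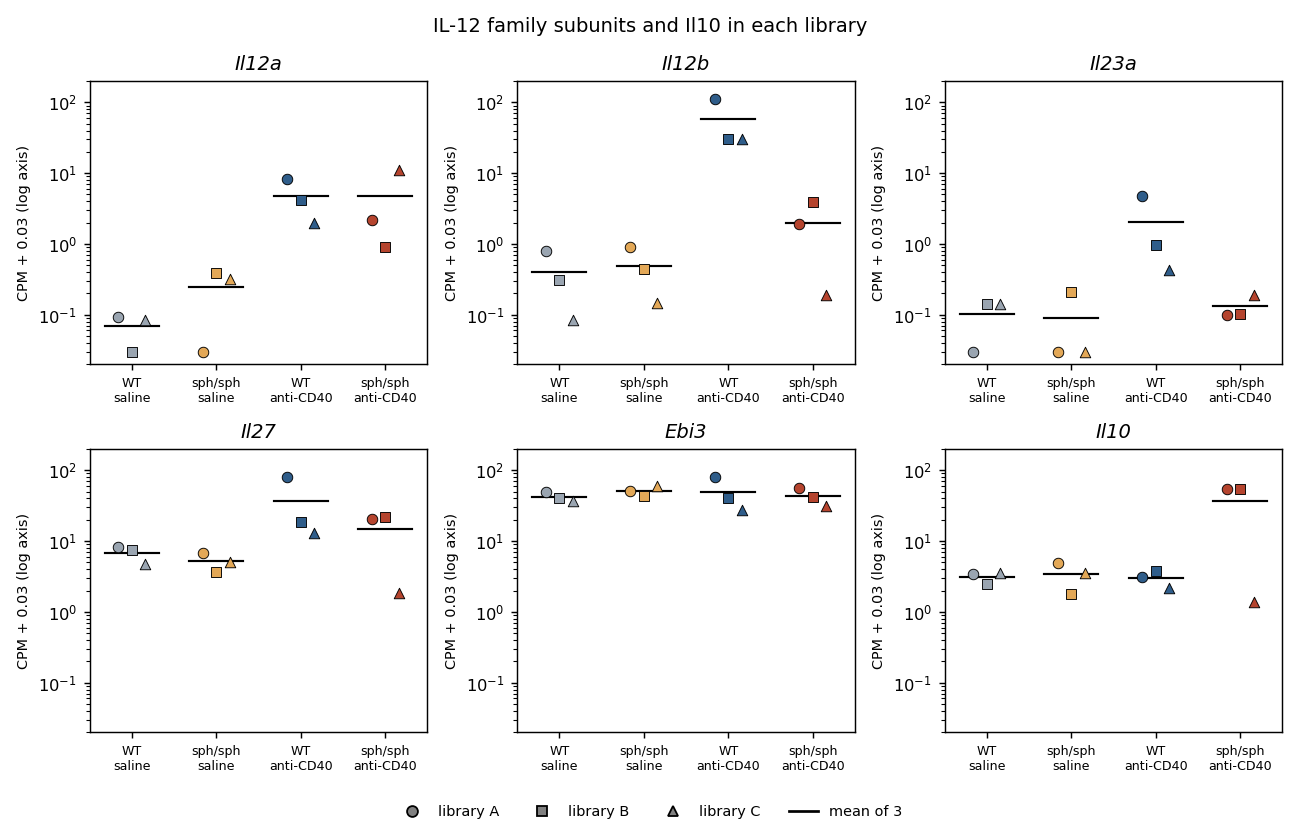
CPM of the 6 genes in each of the 12 libraries (log axis, 0.03 added so that 0 can be drawn); points are libraries A, B and C, and bars are the mean of 3. Il12b is between 30.4 and 112 CPM in the WT anti-CD40 libraries and at most 3.85 CPM in all others, and Il10 is above 50 CPM only in sph/sph anti-CD40 A and B.

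In sph/sph mice the same antibody gave another picture, although none of the 5 tested members passed the test. Il10 read 4.79, 1.78 and 3.55 CPM in sph/sph saline and 54.9, 54.1 and 1.35 CPM under anti-CD40 (794, 731 and 25 counts). Libraries A and B stood more than 10 times above every saline library, while C was the lowest of all 12. The means were 3.37 ± 1.51 and 36.8 ± 30.7 CPM, the groups overlapped through C, and the log2 fold was 3.44 (SE 0.97, edgeR adjusted p = 0.105). Without C the log2 fold was 4.00 (edgeR adjusted p = 0.000557), and with all libraries DESeq2 gave an adjusted p of 0.00302 and limma-voom one of 0.546.

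Il12b read 0.865, 0.416 and 0.116 CPM (13, 7 and 2 counts) in sph/sph saline and 1.87, 3.85 and 0.162 CPM (27, 52 and 3 counts) under anti-CD40. Library C lay within the saline range, and the groups overlapped. The log2 fold was 2.05 (SE 1.10, edgeR adjusted p = 0.304), and 2.62 without C (edgeR adjusted p = 0.081). Il12a read 0, 0.356 and 0.291 CPM in sph/sph saline and 2.14, 0.888 and 11 CPM under anti-CD40, with no overlap and with C this time the highest of all 12 libraries. Its log2 fold was 4.37 (SE 1.17), with an adjusted p of 0.0949 by edgeR and of 0.00298 by DESeq2. In counts this is 11 reads in saline and 247 under anti-CD40, a ratio of 23.7 (95% exact interval 13 to 48.1, counting error only), but 204 of the 247 came from C. Without C the ratio was 6.85 (95% exact interval 3.47 to 14.7) and the log2 fold 2.73 (edgeR adjusted p = 0.0751). DESeq2 was run with C only.

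Il23a was at the edge of detection in sph/sph, with 0, 3 and 0 counts under saline and 1, 1 and 3 under anti-CD40. Il27 read 6.85, 3.68 and 5.00 CPM under saline and 20.7, 21.6 and 1.84 CPM under anti-CD40, so A and B were above every saline library and C below every one (log2 fold 1.5, SE 0.85, edgeR adjusted p = 0.333, and 0.0654 without C). Ebi3 read 51.3, 43.9 and 59.7 CPM under saline and 55.8, 41.3 and 30.8 CPM under anti-CD40, with overlap (log2 fold -0.28, SE 0.34, edgeR adjusted p = 0.688). The comparison called few genes at all, 0.78% of those tested by edgeR, 0.578% higher and 0.202% lower. At an unadjusted p under 0.05, 2 members were higher, Il10 and Il12a, where 2901 of 13844 genes had such a p in either direction. DESeq2 called the same 2, in a comparison where it called many more genes than edgeR (counts in the last section), and limma-voom called 0. The median log2 fold was 2.05 over the 5 members and 0.0422 over all genes tested.

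**Figure D2:**
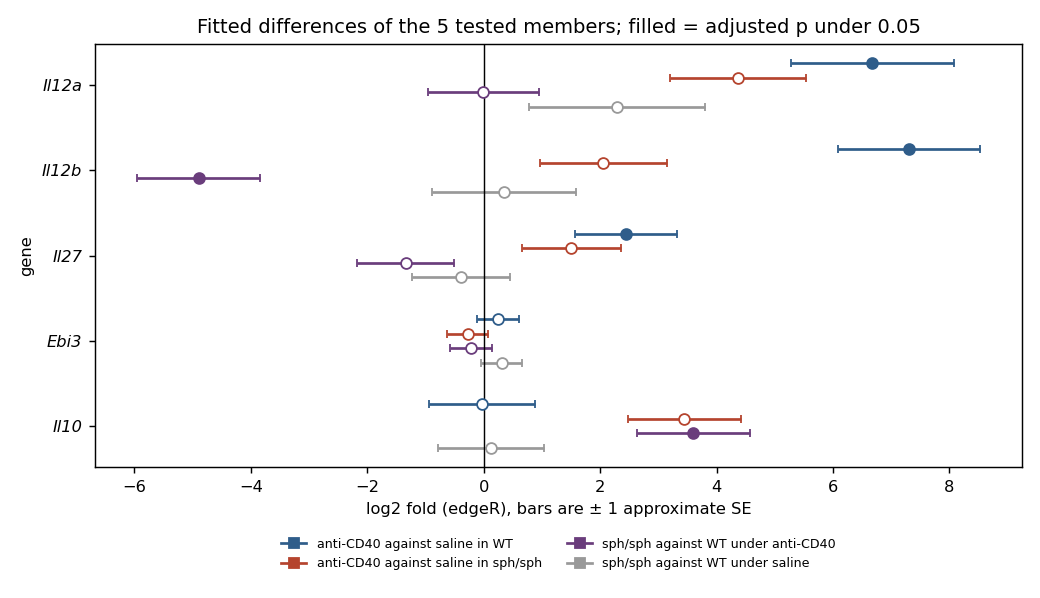
Log2 folds of the 5 tested genes in 4 comparisons, with bars of 1 approximate SE; filled symbols passed an adjusted p of 0.05. Il12b lies at 7.31 for anti-CD40 in WT and at -4.90 for sph/sph against WT under anti-CD40, where Il10 lies at 3.60.

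Set side by side under anti-CD40, the 2 genotypes differed in opposite directions for Il12b and Il10. Il12b, at 112, 30.4 and 30.4 CPM in WT and at 1.87, 3.85 and 0.162 CPM in sph/sph, did not overlap and was lower in sph/sph by a log2 fold of -4.90 (SE 1.06, edgeR adjusted p = 0.0113). It passed the test without any 1 of the 12 libraries (adjusted p between 0.0107 and 0.0382). It did not pass in an edgeR fit of these 2 groups alone (adjusted p = 0.0565) or without the 4 libraries that lacked Y-linked reads (log2 fold -3.94, edgeR adjusted p = 0.113). Il10, at 3.13, 3.78 and 2.17 CPM in WT and at 54.9, 54.1 and 1.35 CPM in sph/sph, was higher in sph/sph by a log2 fold of 3.60 (SE 0.98, edgeR adjusted p = 0.0299). Here the groups overlapped, because C lay below all 3 WT libraries.

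The call for Il10 depended on single libraries of both groups. Without sph/sph anti-CD40 C the log2 fold was 4.18 (edgeR adjusted p = 0.000174). The adjusted p was 0.0724 without sph/sph anti-CD40 A, 0.0739 without B, 0.0683 without WT anti-CD40 A, 0.08 without B and 0.108 without C of that group. It was 0.22 without the 4 libraries lacking Y-linked reads, 0.146 in a fit of the 2 groups alone and 0.436 with limma-voom (log2 fold 2.18).

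Among the other members, Il23a had 96 counts in WT and 5 in sph/sph under anti-CD40, with libraries of 70, 18 and 8 against 1, 1 and 3. The groups did not overlap, and the ratio of summed counts of sph/sph to WT was 0.0609 (95% exact interval 0.0193 to 0.147). Fitted without the filter, its log2 fold was -4.14 (edgeR adjusted p = 0.049). When 1 library was left out the adjusted p reached 0.109, without sph/sph anti-CD40 B; it also passed 0.05 without A or C of that group (0.108 and 0.0521), WT saline B or C (0.0603 and 0.0609) or sph/sph saline A (0.051). Without WT anti-CD40 A or B the gene did not pass the filter of that fit. Il12a, at 8.18, 4.09 and 1.92 CPM in WT and 2.14, 0.888 and 11 CPM in sph/sph, overlapped (log2 fold -0.01, SE 0.96, edgeR adjusted p = 0.998, and -1.62 without sph/sph anti-CD40 C, edgeR adjusted p = 0.215). Il27 overlapped too, with a log2 fold of -1.34 (SE 0.84, edgeR adjusted p = 0.309), and so did Ebi3, with one of -0.22 (SE 0.36, edgeR adjusted p = 0.722).

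So 1 of the 5 tested members was higher and 1 lower in sph/sph than in WT under anti-CD40, where 11.5% of all genes tested were higher and 6.19% lower, 17.7% in either direction. Their median log2 fold was -0.22, beside 0.08 over all genes tested. Of the chains of IL-12, Il12b was lower in sph/sph, whereas a difference in Il12a of several fold in either direction was not detectable with an SE of 0.96 on the log2 scale.

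Under saline the genotypes were not told apart in any of the 5 tested members. Il12b averaged 0.367 ± 0.367 CPM in the WT libraries and 0.466 ± 0.377 CPM in those of sph/sph (log2 fold 0.35, SE 1.23, edgeR adjusted p = 0.942). Il10 averaged 3.08 ± 0.582 and 3.37 ± 1.51 CPM (log2 fold 0.13, SE 0.91, edgeR adjusted p = 0.972). Il27 averaged 6.82 ± 1.88 and 5.18 ± 1.59 CPM (log2 fold -0.40, edgeR adjusted p = 0.891), and Ebi3 41.8 ± 6.43 and 51.7 ± 7.89 CPM (log2 fold 0.31, edgeR adjusted p = 0.784). In each of these genes the 2 groups overlapped. Il12a had 2 counts in WT and 11 in sph/sph (log2 fold 2.29, edgeR adjusted p = 0.592), and Il23a 4 and 3 counts. By edgeR 2.04% of all genes tested were called, 1.6% higher and 0.433% lower. Of the members 0 passed an unadjusted p of 0.05, and DESeq2 and limma-voom called 0.

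The interaction, which subtracts the antibody response of WT from that of sph/sph, asks whether the genotypes answered the antibody differently. By edgeR 0 of the 5 members passed, where 4.3% of all genes tested were called, 3.18% higher and 1.12% lower. Il12b had the lowest p (log2 difference -5.25, SE 1.59, edgeR adjusted p = 0.0993). DESeq2 called it (adjusted p = 0.0074). Il10 came next (log2 difference 3.47, SE 1.30, edgeR adjusted p = 0.178). Without sph/sph anti-CD40 C it passed (log2 difference 4.06, adjusted p = 0.00222), and DESeq2 gave an adjusted p of 0.0504 with all libraries. These 2 had an unadjusted p under 0.05, as had 2603 of the 13844 genes tested, and limma-voom called 0 members.

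The balance of Il12b and Il10 within a library needs no scaling between libraries. The log2 ratio of Il12b to Il10 counts, with 0.5 added to each, was 5.15, 3.00 and 3.80 in WT anti-CD40 A, B and C. It was -4.85, -3.80 and -2.87 in sph/sph anti-CD40, -2.07, -3.02 and -5.40 in WT saline, and -2.43, -2.02 and -4.62 in sph/sph saline. Only the 3 WT anti-CD40 libraries held more Il12b than Il10 reads. Under anti-CD40 the mean ratio was 3.98 ± 1.09 in WT and -3.84 ± 0.994 in sph/sph, a difference of -7.82, and the groups did not overlap. The two-sided exact permutation p was 0.1, the smallest that 3 against 3 libraries can give. In WT the ratio rose by 7.48 with the antibody, again with no overlap and at the smallest possible exact permutation p of 0.1. In sph/sph it moved by -0.816 with overlap (exact permutation p = 0.4). Leaving out 1 library at a time gave differences of -8.31 to -7.24 between genotypes and of 6.52 to 8.19 for the antibody in WT. The library C of sph/sph anti-CD40, where Il10 was low, kept a ratio below 0 because Il12b was low too.

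**Figure D3:**
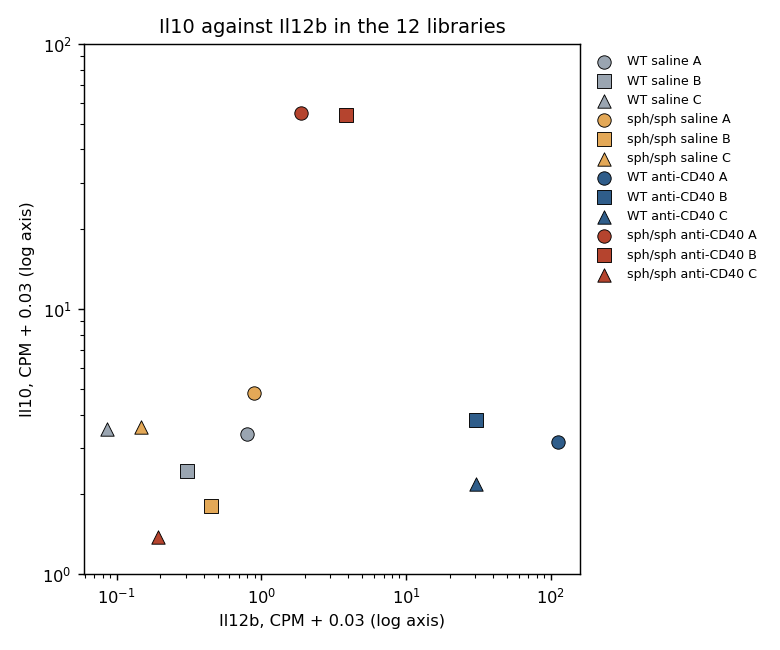
Il10 against Il12b in the 12 libraries (CPM + 0.03, both axes log). The 3 WT anti-CD40 libraries lie to the right at 30.4 CPM of Il12b or more, sph/sph anti-CD40 A and B lie at the top at 54.9 and 54.1 CPM of Il10, and sph/sph anti-CD40 C lies at the lower left among the saline libraries.

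The heterodimer partners did not keep a fixed ratio. Il12b exceeded Il12a by a log2 ratio of counts of 3.77, 2.88 and 3.97 in WT anti-CD40, against -0.196, 2.07 and -5.87 in sph/sph anti-CD40, where A and C held fewer reads of Il12b than of Il12a. The groups did not overlap, as a description without a test. Il27 had fewer reads than Ebi3 in every library. The log2 ratio of counts was -0.0179, -1.11 and -1.08 in WT anti-CD40 and -1.43, -0.936 and -4.05 in sph/sph anti-CD40. Under saline that ratio lay between -3.57 and -2.41. These ratios take no account of gene length. Per kilobase of exon Il27 was above Ebi3 in WT anti-CD40 A, at 78.4 against 70.2 CPM.

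Levels can be compared between genes only per length, here as CPM divided by the exon length in kilobases (RPKM). Ebi3 stood highest of the 6 in all 4 groups, at 36.2 ± 5.57 RPKM in WT saline, 44.8 ± 6.83 in sph/sph saline, 42.9 ± 24.3 in WT anti-CD40 and 36.9 ± 10.9 in sph/sph anti-CD40. In WT saline Il27 (6.68 ± 1.84 RPKM) and Il10 (2.35 ± 0.444 RPKM) followed, and Il12b (0.187 ± 0.186 RPKM), Il23a (0.0327 RPKM) and Il12a (0.0235 RPKM) came last. The same first 3 places held in sph/sph saline, with 5.07 RPKM of Il27 and 2.58 ± 1.15 RPKM of Il10. The order of Il12a, Il12b and Il23a under saline rests on counts of 0 to 13 per library and is not resolved.

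Under anti-CD40 the order differed by genotype. In WT it ran Ebi3, Il27 (36.4 ± 36.5 RPKM), Il12b (29.3 ± 23.9 RPKM), Il12a (2.78 ± 1.87 RPKM), Il10 (2.31 ± 0.619 RPKM) and Il23a (0.889 ± 1.03 RPKM). The first 3 did not differ beyond their spread, nor did Il12a and Il10. In sph/sph it ran Ebi3, Il10 (28.1 ± 23.4 RPKM), Il27 (14.4 ± 10.9 RPKM), Il12a (2.75 ± 3.24 RPKM), Il12b (0.995 ± 0.937 RPKM) and Il23a (0.0452 ± 0.0232 RPKM). There Il10 overlapped both Ebi3 and Il27 in its spread, and Il12a overlapped Il12b. This order of means did not hold in each library. In B Il10 (41.3 RPKM) was above Ebi3 (35.8 RPKM), and Il12b (1.96 RPKM) above Il12a (0.522 RPKM). In C Il12a (6.47 RPKM) was above Il27 (1.80 RPKM) and Il10 (1.03 RPKM).

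The receptors were followed in 7 chains. Il12rb1 is shared by the IL-12 and IL-23 receptors, Il12rb2 completes the IL-12 receptor and Il23r that of IL-23. Il27ra and Il6st form the IL-27 receptor, and Il10ra and Il10rb that of IL-10. Of the 6 chains tested in WT under anti-CD40, 4 rose and the 2 of the IL-10 receptor fell (median log2 fold 2.42), beside 19.4% of all genes tested that rose and 19.7% that fell.

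Il12rb1 read 0.514, 0.879 and 0.499 CPM in the saline libraries of WT and 0.466, 0.831 and 0.407 CPM in those of sph/sph. Under anti-CD40 it read 38.9, 61.0 and 30.8 CPM in the WT libraries and 9.40, 2.52 and 1.78 CPM in those of sph/sph. Both anti-CD40 groups lay above all saline libraries, and WT above sph/sph. It rose in WT by a log2 fold of 6.09 (SE 0.70, edgeR adjusted p = 0.000176) and was lower in sph/sph than in WT under anti-CD40 by -3.26 (SE 0.60, edgeR adjusted p = 0.00497). Both calls were kept in every alternative run.

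Il12rb2 was the one chain called between genotypes under saline. It read 0.257, 0.549 and 0.831 CPM in the WT libraries and 4.66, 6.41 and 5.53 CPM in those of sph/sph, with no overlap (log2 fold 3.31, SE 0.47, edgeR adjusted p = 0.00681). That call was kept without any 1 library but lost with limma-voom (adjusted p = 0.132) and without the 4 libraries lacking Y-linked reads (edgeR adjusted p = 0.0831). Under anti-CD40 it read 15.6, 46.4 and 28.1 CPM in WT and 7.39, 6.81 and 4.96 CPM in sph/sph, again with no overlap but in the other direction (log2 fold -2.24, SE 0.42, edgeR adjusted p = 0.0057). The gene rose in WT by a log2 fold of 5.75 (SE 0.51, edgeR adjusted p = 4.2e-05), and the sph/sph anti-CD40 libraries overlapped those of sph/sph saline. The interaction was called (log2 difference -5.54, SE 0.64, edgeR adjusted p = 0.00106), also without any 1 library.

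Il23r was counted only in WT under anti-CD40, where the libraries had 6, 8 and 6 reads, and 0 times in the other 9 libraries. Against a floor of 3 counts over a group, this is at least 6.35-fold higher than WT saline, and sph/sph was at least 5.7-fold lower than WT under anti-CD40. Il27ra rose in WT from 5.08, 12.6 and 11.4 to 28.9, 76.5 and 75.8 CPM, without overlap (log2 fold 2.64, SE 0.76, edgeR adjusted p = 0.0199). The adjusted p was 0.0711 without WT saline A, 0.0536 without WT saline C, 0.0544 without WT anti-CD40 B and 0.0519 without WT anti-CD40 C. Il6st, the signalling chain shared with IL-6, rose from 189, 448 and 448 to 579, 1431 and 2981 CPM, without overlap (log2 fold 2.20, SE 0.79, edgeR adjusted p = 0.0486). That call was lost without any 1 of 8 libraries (all 3 of WT saline, sph/sph saline A and B, WT anti-CD40 B and C, and sph/sph anti-CD40 B), with adjusted p up to 0.184.

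Il10ra, which binds IL-10, fell in WT under anti-CD40 from 344, 294 and 297 to 202, 127 and 78.2 CPM (log2 fold -1.20, SE 0.29, edgeR adjusted p = 0.00932). Il10rb, its partner, fell from 325, 263 and 327 to 170, 104 and 128 CPM (log2 fold -1.19, SE 0.21, edgeR adjusted p = 0.00177). Neither pair of groups overlapped, and both calls were kept in every alternative run. In sph/sph under anti-CD40 Il10ra read 158, 212 and 155 CPM and Il10rb 154, 145 and 188 CPM, without a call against WT (edgeR adjusted p = 0.422 and 0.391). In sph/sph edgeR called 0 of the 6 tested chains for the antibody. At an unadjusted p under 0.05 Il12rb1 was higher and Il10rb lower, DESeq2 called the same 2 and limma-voom 0. That unadjusted p was reached by 2901 of 13844 genes.

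**Figure D4:**
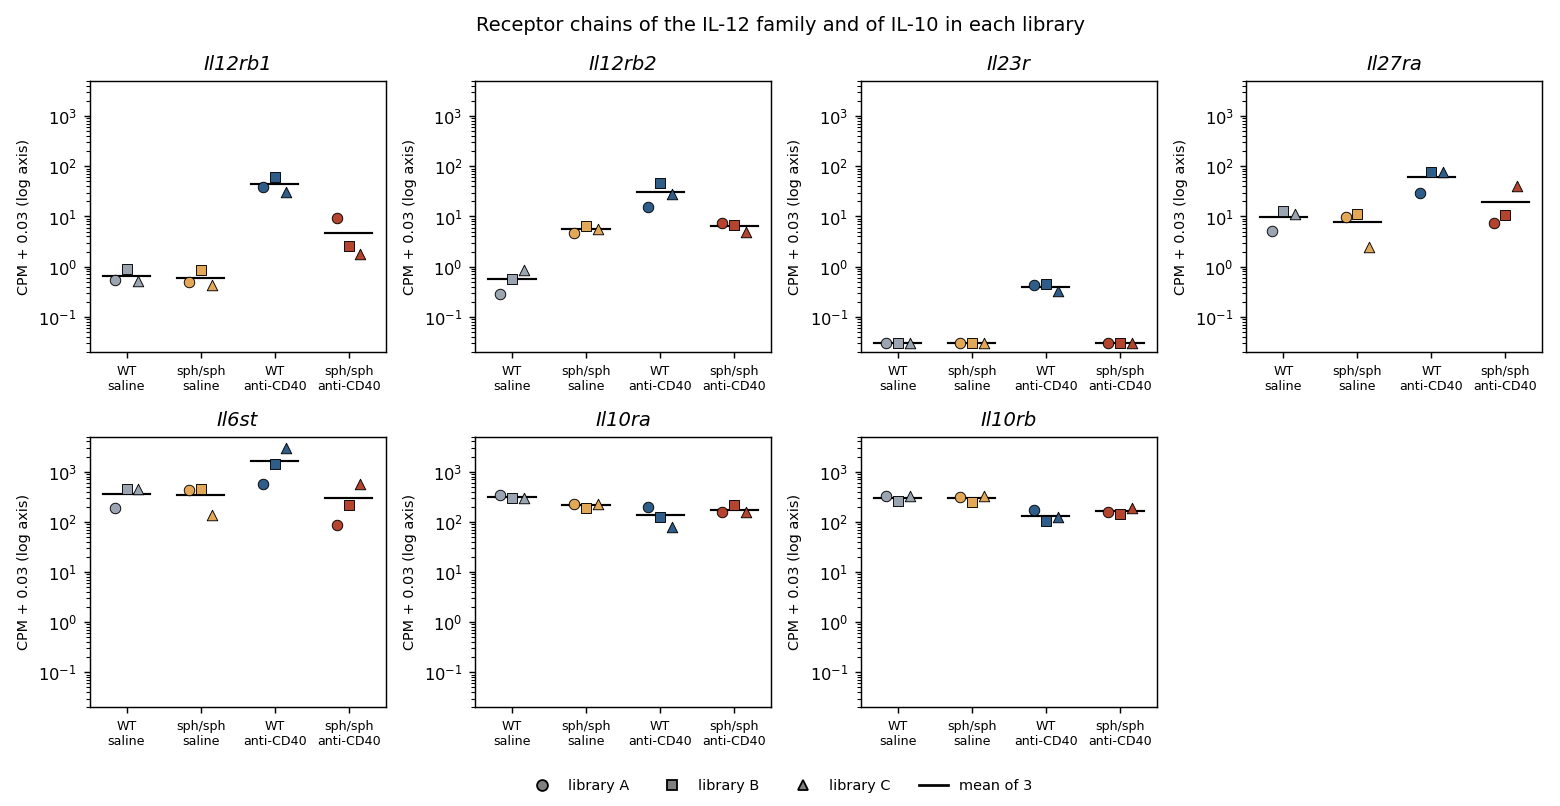
CPM of the 7 receptor chains in the 12 libraries (log axis, 0.03 added); points are libraries and bars the mean of 3. Il12rb1 is at 30.8 CPM or more in the WT anti-CD40 libraries and at most 9.40 CPM elsewhere, Il23r has reads only in WT anti-CD40, and both IL-10 receptor chains are lower there than in WT saline.

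Downstream of these receptors, Stat4, which carries the IL-12 signal, Jak2, a kinase of the IL-12 and IL-23 receptors, and Stat3, the main carrier of IL-10 and IL-23 signals, rose in WT under anti-CD40. Jak2 rose from 87.3, 87.3 and 80.6 CPM to 259, 231 and 255 CPM (log2 fold 1.54, SE 0.16, edgeR adjusted p = 8.89e-05), and read 115, 143 and 97.5 CPM in sph/sph under anti-CD40. Stat3 rose from 177, 174 and 180 to 320, 327 and 361 CPM (log2 fold 0.93, SE 0.13, edgeR adjusted p = 0.000597), and read 183, 216 and 168 CPM in sph/sph under anti-CD40. These 2 were lower in sph/sph than in WT under anti-CD40, by log2 folds of -1.07 and -0.83 (edgeR adjusted p = 0.0015 and 0.00237). The call of Stat3 was lost without the 4 libraries lacking Y-linked reads (edgeR adjusted p = 0.0595) and in a fit of the 2 groups alone (edgeR adjusted p = 0.0698). In sph/sph edgeR called 0 of these 3 for the antibody, while Stat4 and Jak2 were higher at an unadjusted p under 0.05 and by DESeq2, and limma-voom called 0.

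Among 20 regulators of Il12b, Il27, Ebi3 and Il10 transcription, 9 rose and 2 fell in WT under anti-CD40 (median log2 fold 0.41), beside 19.4% and 19.7% of all genes tested. Irf8, which drives Il12b, rose from 331, 270 and 229 to 970, 713 and 817 CPM (log2 fold 1.59, SE 0.23, edgeR adjusted p = 0.000549). In sph/sph under anti-CD40 it read 371, 267 and 331 CPM, below every WT library (log2 fold -1.37, SE 0.22, edgeR adjusted p = 0.00273). Bhlhe40, a repressor of Il10, rose from 76.0, 53.5 and 29.7 to 438, 313 and 230 CPM in WT (log2 fold 2.62, edgeR adjusted p = 0.000545), and read 110, 173 and 93.8 CPM in sph/sph, again below every WT library (log2 fold -1.38, SE 0.35, edgeR adjusted p = 0.0238). Maf, an activator of Il10, fell in WT from 520, 719 and 666 to 102, 152 and 274 CPM (log2 fold -1.85, edgeR adjusted p = 0.00435) and read 194, 219 and 422 CPM in sph/sph, without a call between genotypes (edgeR adjusted p = 0.26).

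Runx3, a factor of lymphocytes and macrophages, rose in WT from 1.22, 1.65 and 2.77 to 48.1, 73.2 and 47.8 CPM (log2 fold 4.90, SE 0.66, edgeR adjusted p = 0.000437). Nfil3, a repressor of Il12b, rose in WT to 20.8, 22.5 and 14.1 CPM (log2 fold 2.97, edgeR adjusted p = 0.00397), and read 21.7, 25.0 and 3.40 CPM in sph/sph under anti-CD40, with C within the saline range. The other genes that rose in WT were Irf1, Atf3, Batf, Nfkb1 and Rela, and Batf3 fell. The edgeR adjusted p of Atf3 was 0.0913 without WT saline B, 0.0772 without WT saline C and 0.0934 without WT anti-CD40 C. That of Batf was 0.0686 without WT saline B and 0.0599 without WT anti-CD40 A, and that of Rela 0.0545 without WT saline C. The call of Batf3 was lost without any 1 of 9 libraries, that is, of any but WT anti-CD40 A and sph/sph anti-CD40 A and C, with adjusted p up to 0.141 (without WT anti-CD40 B). Between genotypes under anti-CD40, 3 regulators were lower in sph/sph and 0 higher, beside 6.19% and 11.5% of all genes tested: Irf8, Bhlhe40 and Nfkb1, an NF-kB subunit (log2 fold -0.54, SE 0.14, edgeR adjusted p = 0.0246). The edgeR adjusted p of Bhlhe40 was 0.0626 and 0.0597 without WT anti-CD40 A or B, and 0.0748 and 0.0559 without sph/sph anti-CD40 A or C. That of Nfkb1 was 0.053 and 0.0775 without WT anti-CD40 B or C, and 0.065 without sph/sph anti-CD40 A. Without the 4 libraries lacking Y-linked reads it was 0.17 for Bhlhe40 and 0.204 for Nfkb1, and in a fit of the 2 groups alone 0.0714 and 0.152. In sph/sph edgeR called 0 of the 20 for the antibody, where 3 were higher and 1 lower at an unadjusted p under 0.05 and by DESeq2 (Nfkb1, Runx3 and Nfil3, and Maf) and limma-voom called 0. Over all 13844 genes tested, 2901 had an unadjusted p under 0.05 there. For genotype under saline edgeR, DESeq2 and limma-voom each called 0. Bhlhe40 was higher there at an unadjusted p under 0.05, which 1817 of 13844 genes reached.

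Of 13 genes known to be induced by IL-10 or STAT3 in macrophages, 9 rose and 3 fell in WT under anti-CD40 (median log2 fold 1.80), beside 19.4% and 19.7% of all genes tested; Il10 itself gave no call there. Socs3, a feedback inhibitor of cytokine signalling, rose from 11.4, 10.5 and 13 to 365, 179 and 173 CPM (log2 fold 4.36, SE 0.53, edgeR adjusted p = 0.00025), and read 106, 110 and 43.9 CPM in sph/sph under anti-CD40. Between genotypes under anti-CD40, 2 were higher in sph/sph and 3 lower (median log2 fold -0.58), beside 11.5% and 6.19% of all genes tested. Il21r, the IL-21 receptor, was higher at 134, 144 and 98.2 CPM against 59.3, 70.2 and 52.2 CPM in WT (log2 fold 1.05, SE 0.31, edgeR adjusted p = 0.0439), a call lost without any 1 of 8 libraries, that is, of any but WT saline A and B, sph/sph saline B and sph/sph anti-CD40 C (adjusted p up to 0.149, without WT anti-CD40 C), with RLE scaling (0.0574), without the filter (0.0514), in a fit of the 2 groups alone (0.0527) and without the 4 libraries lacking Y-linked reads (0.173). For anti-CD40 in sph/sph DESeq2 called 18 of the 62 genes listed in the 7 pathway lists, and limma-voom 1. By edgeR Il21r was the only 1 called there, beside 0.78% of all genes tested (log2 fold 2.07, SE 0.32, edgeR adjusted p = 0.0256). That call was lost without any 1 of WT saline C, the 3 sph/sph saline libraries and sph/sph anti-CD40 A and B, with adjusted p up to 0.152 (without sph/sph saline C), in a fit of the 2 groups alone (0.17) and without the 4 libraries lacking Y-linked reads (0.399). At an unadjusted p under 0.05 the antibody comparison in sph/sph had 8 of the 13 higher and 1 lower, and DESeq2 called 6 higher, among them Il1rn, Socs3 and Tnfaip3, and 1 lower, Arg2. Over all genes tested, 2901 of 13844 had that unadjusted p. Under saline Il21r was higher in sph/sph at 34.1, 22.9 and 32.3 CPM against 3.98, 1.32 and 2.83 CPM in WT (log2 fold 3.46, SE 0.35, edgeR adjusted p = 0.00283), a call lost without the 4 libraries lacking Y-linked reads (edgeR adjusted p = 0.0812).

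Ddit4, an inhibitor of mTORC1, was the other gene of this list higher in sph/sph under anti-CD40 (196, 206 and 408 CPM against 16.8, 55.1 and 43.8 CPM, log2 fold 2.81, SE 0.55, edgeR adjusted p = 0.00723). The 3 that were lower were Il4ra, a chain of the IL-4 receptor (158, 205 and 255 CPM against 378, 446 and 593 CPM, log2 fold -1.20, edgeR adjusted p = 0.00457), the transcriptional repressor Etv3 (log2 fold -1.05, edgeR adjusted p = 0.0108) and the transcriptional corepressor Sbno2 (log2 fold -0.88, edgeR adjusted p = 0.0304). The adjusted p of Sbno2 was 0.0527 without WT saline B, 0.0505 without sph/sph saline A, 0.0688 without WT anti-CD40 A and 0.098 without WT anti-CD40 C. In a fit of the 2 groups alone the adjusted p was 0.0753 for Il4ra, 0.086 for Etv3 and 0.152 for Sbno2, and without the 4 libraries lacking Y-linked reads 0.0919 for Etv3 and 0.132 for Sbno2. All 3 sph/sph anti-CD40 libraries lay below every WT anti-CD40 library in these 3 genes, C with little Il10 as well as A and B.

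The 8 genes of the IL-12 and interferon-gamma axis in T and NK cells all rose in WT under anti-CD40 (median log2 fold 8.50, beside 0.0474 over all genes tested). Of all genes tested, 19.4% rose. The call of Eomes was lost with limma-voom (adjusted p = 0.0655). Ifng, the cytokine that IL-12 induces, read 0.129, 0.0549 and 0 CPM in WT saline and 16.2, 37.1 and 16.5 CPM under anti-CD40 (log2 fold 8.46, SE 1.07, edgeR adjusted p = 0.000298). In sph/sph it read 0.133, 0.238 and 0 CPM under saline and 1.24, 0.148 and 0.432 CPM under anti-CD40. It was lower in sph/sph than in WT under anti-CD40, without overlap (log2 fold -5.24, SE 0.86, edgeR adjusted p = 0.00277). Xcl1, a chemokine of NK and T cells, read 19.2, 142 and 60.6 CPM in WT and 1.80, 0.222 and 2.00 CPM in sph/sph under anti-CD40 (log2 fold -5.76, SE 0.88, edgeR adjusted p = 0.00194).

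Of these 8 genes, 7 were lower in sph/sph than in WT under anti-CD40 and 0 higher, with a median log2 fold of -4.85, beside 6.19% and 11.5% of all genes tested. The exception was Il18r1, an IL-18 receptor chain (log2 fold -3.52, edgeR adjusted p = 0.0882). The calls of Ifng, Xcl1 and Prf1 (perforin) were kept without any 1 library. Those of Gzmb (granzyme B), Eomes, Tbx21 (T-bet) and Il18rap were each lost without WT anti-CD40 B, at edgeR adjusted p of 0.07, 0.0657, 0.108 and 0.0768. The adjusted p was also 0.056, 0.0585 and 0.0586 for Eomes, Tbx21 and Il18rap without sph/sph anti-CD40 A, 0.0567 and 0.0637 for Tbx21 and Il18rap without B of that group, and 0.0596 for Tbx21 without WT anti-CD40 C. Without the 4 libraries lacking Y-linked reads these 4 were not called either (edgeR adjusted p from 0.0607 to 0.0865), and in a fit of the 2 groups alone they and Prf1 were not (edgeR adjusted p from 0.0595 to 0.103). Eomes was also not called by limma-voom (adjusted p = 0.137). For the interaction edgeR called 0 of the 8, and so did limma-voom. At an unadjusted p under 0.05 and by DESeq2, 7 were lower, where 2603 of 13844 genes had such a p in either direction. In sph/sph edgeR called 0 for the antibody, with 4 higher at an unadjusted p under 0.05, 3 by DESeq2 and 0 by limma-voom. That unadjusted p was reached there by 2901 of 13844 genes. The 8 T and NK cell markers summed to 73.8, 525 and 222 CPM in WT under anti-CD40, to 22.3, 4.07 and 61.2 CPM in sph/sph under anti-CD40 and to 8.45 to 24.2 CPM under saline. In WT 7 of the 8 rose under anti-CD40, beside 19.4% of all genes tested. Cd4, the exception, read 22.4, 12.4 and 18.3 CPM in WT saline, most of the sums there. Between genotypes under anti-CD40, 3 were lower in sph/sph, Ncr1, Klrb1c and Nkg7, beside 6.19% of all genes tested. The other 5 were not called. Only Trac in sph/sph anti-CD40 B and Ncr1 in sph/sph saline A were at 0. The part of such cells in the result was not tested. Within WT, library B had the most T and NK markers and Ifng, whereas A had the most Il12b, Il12a, Il23a and Il27.

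The IL-23 side was thin. Of 6 genes of lymphocytes that answer IL-23, 3 were tested and 1, Ccr6, rose in WT under anti-CD40, beside 19.4% of all genes tested (log2 fold 5.99, SE 2.01, edgeR adjusted p = 0.0377). The call was lost without any 1 WT saline library or WT anti-CD40 B or C (adjusted p up to 0.108, without WT saline A). Ccr6 was highest, at 31.8 CPM, in sph/sph anti-CD40 C, the library with the most B cell markers. Il17a had 3 counts over WT anti-CD40 and 0 in the other groups, and Il22 had 9 and 0. Il19, Il20 and Il24, genes of the IL-10 family near Il10 on its chromosome, had at most 1 count in a library. The reads of Il10 in sph/sph anti-CD40 A and B were thus not shared by these 3 genes, and other genes near it were not looked at.

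Marker sums of several cell types that a bead enrichment can hold differed between the groups. The 6 markers of mature dendritic cells, a main source of IL-12, summed to 14 to 42.5 CPM under saline, to 3247, 1198 and 1312 CPM in WT anti-CD40 A, B and C and to 495, 308 and 181 CPM in sph/sph anti-CD40. Library A was thus the highest for these markers and for Il12b, Il12a, Il23a and Il27 alike. Fscn1 (1149, 489 and 561 CPM) and Il4i1 (1002, 516 and 500.5 CPM) were the largest parts of the sums in WT anti-CD40. Ccr7 ran in another library order than the sum in sph/sph anti-CD40, at 6.77, 4.73 and 56.5 CPM. None of the 6 was at 0 in any library, and 5 of them rose in WT under anti-CD40, beside 19.4% of all genes tested. The exception, Ccl17, read 1.61, 2.42 and 0.665 CPM in WT saline and 1.80, 0.0525 and 0.197 CPM in WT anti-CD40. Between genotypes under anti-CD40, 3 were lower in sph/sph, beside 6.19% of all genes tested. The 8 monocyte markers summed to 2158, 1565 and 759 CPM in WT anti-CD40 and to 1781, 1120 and 488 CPM in sph/sph anti-CD40, so that in sph/sph the library with little Il10 also had the lowest sum.

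The 6 markers of plasmacytoid dendritic cells summed to 769, 665 and 942 CPM in WT anti-CD40, to 392, 265 and 130 CPM in sph/sph anti-CD40 and to 128 to 194 CPM under saline. Bst2 made up most of each sum, at 755, 553 and 856 CPM in WT anti-CD40 and 388, 263 and 88.1 CPM in sph/sph anti-CD40. Siglech, another of the 6, ran in another library order. It read 2.59, 48.6 and 36.7 CPM in WT anti-CD40 and 0.553, 0.148 and 19.4 CPM in sph/sph anti-CD40. All 6 rose in WT, beside 19.4% of all genes tested. Of the 6, 1, Bst2, was lower in sph/sph than in WT under anti-CD40, beside 6.19% of all genes tested. The 8 neutrophil markers summed to 510, 606 and 195 CPM in WT anti-CD40, to 326, 213 and 157 CPM in sph/sph anti-CD40 and to 124 to 195 CPM under saline. Of the 7 tested, 5 rose in WT, beside 19.4% of all genes tested. Between genotypes under anti-CD40 Elane was higher and Cxcr2 lower in sph/sph, beside 11.5% and 6.19% of all genes tested.

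The 6 B cell markers summed to 126, 48.8 and 1993 CPM in sph/sph anti-CD40 A, B and C, and to 52.6, 239 and 339 CPM in WT anti-CD40; C was also the library with the most Il12a. Erythroid markers, 6 genes, separated the genotypes in both treatments: they summed to 3802 to 14680 CPM in sph/sph anti-CD40 and to 29.4 to 180 CPM in WT anti-CD40. The 8 markers of conventional dendritic cells summed to 154, 147 and 180 CPM in WT anti-CD40 and to 302, 161 and 296 CPM in sph/sph anti-CD40. Cd24a made up 244, 103 and 211 CPM of the latter. Cd24a and Clec10a were higher and Zbtb46 lower in sph/sph than in WT under anti-CD40, beside 11.5% and 6.19% of all genes tested. The part of dendritic cells of any kind, monocytes, neutrophils, B cells and erythroid cells in the differences of Il12b, Il12a, Il27 and Il10 was not tested.

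**Figure D5:**
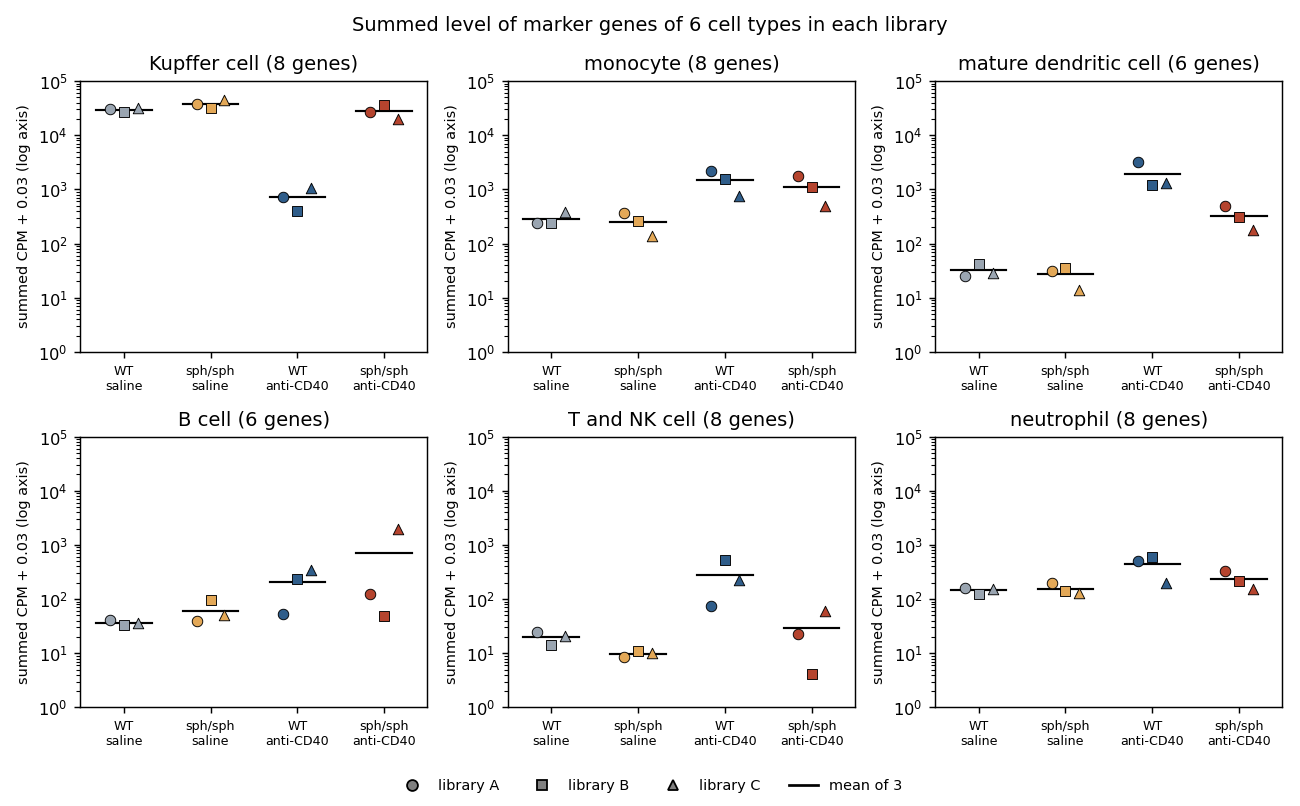
Summed CPM of marker genes of 6 cell types in the 12 libraries (log axis, 0.03 added); points are libraries and bars the mean of 3. The Kupffer cell sum is at most 1047 CPM in WT anti-CD40 and at least 20020 CPM elsewhere, the mature dendritic cell sum is highest in WT anti-CD40, and the B cell sum is highest, at 1993 CPM, in sph/sph anti-CD40 C.

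For each tested member the 3 genes with the most similar profile were found among all genes tested, by the root mean square difference of log2 CPM, each gene centred on its own mean, over the 12 libraries. Il27 was closest to Mx1 (0.381), Il6 (0.421) and Fam3b (0.474), beside its own spread of 1.36. Il12a was closest to Hsh2d (0.758), Gp6 (0.777) and St8sia6 (0.797), beside a spread of 2.27, and Il12b to Gm4841 (0.888), Psg22 (0.907) and Plppr4 (0.976), beside one of 2.99. Il10 was closest to Ceacam19 (0.807), Dnaaf3 (0.868) and Ido1 (0.913), beside a spread of 1.64. Ebi3, which varied least, was closest to Atp6v1f (0.151), Mthfs (0.172) and Sh3bp2 (0.185), beside a spread of 0.407. All genes share the libraries and their scaling, and these distances are descriptions.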

How the data were processed

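RNA was measured in bulk in 12 F4/80-enriched liver preparations. The values are whole-number read counts for each gene, deposited as a single table that shows no sign of scaling by the authors. The submitters' processing notes name STAR 2.7.0e, SAMtools 1.9, featureCounts and build GRCm38.p5. Libraries were made with a stranded kit per the labels' protocols; for strand setting, annotation release and multiply mapped reads, the answer is "not given in the sources used here". The design text counts 3 mice per group, so libraries are taken as separate animals.

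Symbols were matched for 25587 of 25700 Ensembl identifiers; 6872 genes had 0 counts throughout. Coordinates and exon lengths come from a GENCODE annotation of GRCm38. edgeR 4.0.16 in R 4.3.3 filtered by expression per group (13844 genes tested), scaled by TMM and fitted 1 mean per group over all 12 libraries with robust quasi-likelihood; calls are at Benjamini-Hochberg adjusted p under 0.05, and every adjusted p without another tool's name is edgeR's. SE is approximate, from the log2 fold and the F statistic. CPM uses TMM-scaled library sizes; the common coefficient of biological variation was 0.382. Promoters are from RefSeq (GRCm38.p6), searched on both strands. Ratios of summed counts carry 95% exact intervals, and groups with 0 counts a floor of 3 counts over the group; both cover counting error only.

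Named genes were the 6 members, the receptor chains, the pathway genes called in a comparison described, defining markers, and the 3 genes nearest each tested member. Members and lists were chosen with earlier results of these data known. Alternatives were RLE scaling, no filter, a filter of 1 CPM in 3 libraries, DESeq2 1.42.0, limma-voom (limma 3.58.1), a fit of 2 groups alone and leaving out each library; a term for Y-linked reads, leaving out the 4 libraries without them, the ratio of summed counts without sph/sph anti-CD40 C and the Kupffer sum without Marco were chosen after seeing the data. The fit was tested on simulated counts. A gene of the JAK and STAT list is not reported here, so no count is given over that list.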

Additional observations from a re-analysis of the deposited data

Results flagged for a closer look

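For 6 of the 62 genes listed in the pathway lists, not all of them tested, the edgeR test of the difference between the genotypes' responses to anti-CD40 passed. Of all genes tested, 4.3% passed it, 3.18% higher and 1.12% lower. Each value is the log2 response to the antibody in sph/sph less the one in WT, and in each gene the fitted response was smaller in sph/sph. Il12rb2, the private chain of the IL-12 receptor, differed by -5.54 (edgeR adjusted p = 0.00106), and this passed without any 1 library and without the 4 libraries lacking Y-linked reads. Il21r, the IL-21 receptor, differed by -2.41 (edgeR adjusted p = 0.0172); it rose in both genotypes and was already higher in sph/sph under saline. Its adjusted p was 0.0519 without WT saline C, 0.055 without sph/sph saline A and 0.0522 without WT anti-CD40 B.

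Bhlhe40, the repressor of Il10, differed by -2.34 (edgeR adjusted p = 0.0295). The call was lost without any 1 of 7 libraries, that is, of any but WT saline A, WT anti-CD40 A and C and sph/sph anti-CD40 B and C, up to 0.0773 without WT saline B. Il4ra, the IL-4 receptor chain, differed by -1.41 (edgeR adjusted p = 0.0296), lost without any 1 library but WT anti-CD40 A and sph/sph anti-CD40 A and C, up to 0.0912 without sph/sph saline A. Irf8, the activator of Il12b, differed by -1.41 (edgeR adjusted p = 0.034), lost without any 1 library but sph/sph saline B, WT anti-CD40 A and sph/sph anti-CD40 A and C, up to 0.0997 without sph/sph saline A. Jak2 differed by -0.981 (edgeR adjusted p = 0.0343), lost without any 1 library but WT anti-CD40 A and sph/sph anti-CD40 B and C, up to 0.103 without sph/sph saline A. Without the 4 libraries lacking Y-linked reads the adjusted p was 0.0991 for Il21r, 0.14 for Bhlhe40, 0.141 for Il4ra, 0.157 for Irf8 and 0.28 for Jak2.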

How the results depend on the processing

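The increases of Il12b and Il12a in WT kept their call in all 20 alternatives, and the genotype difference of Il12b under anti-CD40 in 18 of 20; the difference of Il10 kept its call in 12 of 20. No paired analysis was possible because the columns of the table carry no replicate number for the numbers in the labels to be assigned to, and the ID numbers that the columns do carry link 1 library of each genotype per treatment (the A libraries), fewer than the 2 pairs that a block needs. These A libraries are the 4 without Y-linked reads, which were left out together as an alternative. Counts of 0 to 13 per library limit Il12a, Il12b and Il23a under saline. The causes of the changes below were not tested.

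Genes called for anti-CD40 in WT were 2845 without the 4 libraries lacking Y-linked reads, against 5420. For anti-CD40 in sph/sph DESeq2 called 1372 genes and 2 members, against 108 and 0; without the 4 libraries, and in a fit of the 2 groups alone, 0 genes; and 0 to 2372 genes (the highest without sph/sph anti-CD40 C) and 0 to 1 members when 1 library was left out. For genotype under anti-CD40 limma-voom called 1 member, against 2. Leaving out the 4 libraries gave 1174 genes and 0 members, the 2 groups alone 735 genes and 0 members, and leaving out 1 library 1355 to 3408 genes and 1 to 3 members, against 2455 genes. For genotype under saline DESeq2 called 831 genes, the 2 groups alone 891, leaving out the 4 libraries 13 and leaving out 1 library 73 to 539, against 282. For the interaction DESeq2 called 1393 genes and 1 member, leaving out the 4 libraries 153 genes, and leaving out 1 library 259 to 944 genes and 0 to 1 members, against 595 and 0.

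Log2 folds that changed sign were all without a call. Leaving out 1 library gave -0.308 to 0.496 for Ebi3 and -0.248 to 0.128 for Il10 in WT given the antibody. Between genotypes given the antibody it gave -1.62 to 0.645 for Il12a and -0.497 to 0.336 for Ebi3. For genotype under saline it gave -0.417 to 1.43 for Il12b and -0.207 to 0.435 for Il10. For the interaction it gave -1.33 to 0.297 for Il27 and -0.788 to 0.03 for Ebi3. Without the 4 libraries lacking Y-linked reads the values were -0.182 for Ebi3 and 0.00344 for Il10 in WT, 0.992 for Il12a and 0.0962 for Ebi3 between genotypes under anti-CD40, -0.147 for Il10 under saline and 0.059 for Il27 in the interaction. Without these 4 libraries the increases of Il27ra, Il6st, Stat4, Irf1, Batf, Rela, Nfil3, Atf3, Il1rn and Ccr6 in WT, and the decreases of Ddit4 and Arg2, were not called (edgeR adjusted p from 0.054 to 0.315).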
